A study of Rattus norvegicus with 3 samples.

Results

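The genes described here build, carry and switch off the cyclic AMP (cAMP) and protein kinase C signals in rat granulosa cells. They were selected by name from the platform annotation: genes of the adenylyl cyclases, of the regulatory, catalytic and inhibitor subunits of protein kinase A (PKA), of protein kinase C (PKC), of the phosphodiesterases and of the A-kinase anchoring proteins (AKAPs, without Akap12), with Gnas for the stimulatory G protein. This gave 64 genes with 103 probe sets, of 14218 genes that the array names by 1 symbol. Granulosa cells came from Sprague-Dawley females that were immature (24 to 25 days of age), were taken by puncturing follicles 48 h after pregnant mare's serum gonadotropin, and were pooled for culture. There were 3 groups: Ad-NFIL3 virus with FSK/PMA, Ad-GFP virus with FSK/PMA, and Ad-GFP virus without FSK/PMA, called unstimulated. All cells carried an adenovirus at 50 pfu per cell, added 24 h before stimulation and washed off after 2 h. FSK/PMA is 10 uM forskolin with 20 nM phorbol 12-myristate 13-acetate for 6 h. Each group had 1 Affymetrix rat array, hybridised with RNA pooled from 3 experiments, so no value below carries a replicate error and no test was possible. The number of arrays limits the precision.

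In the follicle, luteinizing hormone acts through Gs on adenylyl cyclase, and the cAMP made there releases the catalytic subunits of PKA from their regulatory subunits. AKAPs hold PKA at fixed places in the cell, PKA inhibitor proteins block the free catalytic subunit, and phosphodiesterases break cAMP down. Forskolin enters this chain at the cyclase, while PMA binds the diacylglycerol site of the classical PKC enzymes and of some calcium-independent ones. NFIL3 is a basic leucine zipper protein known mainly as a transcriptional repressor, and it binds DNA sites of the form TTANGTAA. The study set FSK/PMA against no stimulus to mimic the ovulatory signal, and set NFIL3 against GFP under that signal.

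Promoter windows of the genes at the ends of both comparisons are printed first, because the members with the largest differences include known cAMP-inducible genes. The windows come from RefSeq, build GRCr8, and run from 250 bases before to 50 bases after an annotated transcript start. Of the 64 member genes, 49 had at least 1 window, and these 49 genes had 63 windows. Capitals mark matches on either strand to TGACG, the core of the cAMP response element, and its reverse complement CGTCA. The full element TGACGTCA, which holds TGACG on each strand in overlap, and TTANGTAA were also searched on both strands and matched in none of the 5 windows printed. For genes with several windows the 1 with most matches is shown, a choice made after the search. No window is printed for Pde6d.

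Pde4b encodes a cAMP-specific phosphodiesterase, shown at chr5:122028706-122029005 on the plus strand, the first of its 2 windows.
Pde4b: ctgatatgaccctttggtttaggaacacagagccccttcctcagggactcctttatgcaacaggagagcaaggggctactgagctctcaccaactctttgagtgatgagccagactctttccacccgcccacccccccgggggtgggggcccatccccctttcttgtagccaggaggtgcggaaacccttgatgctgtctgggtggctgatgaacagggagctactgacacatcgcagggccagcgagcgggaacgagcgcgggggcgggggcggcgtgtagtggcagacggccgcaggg

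Pde4d encodes a second cAMP-specific phosphodiesterase, shown at chr2:42592499-42592798 on the plus strand, 1 of its 5 windows.
Pde4d: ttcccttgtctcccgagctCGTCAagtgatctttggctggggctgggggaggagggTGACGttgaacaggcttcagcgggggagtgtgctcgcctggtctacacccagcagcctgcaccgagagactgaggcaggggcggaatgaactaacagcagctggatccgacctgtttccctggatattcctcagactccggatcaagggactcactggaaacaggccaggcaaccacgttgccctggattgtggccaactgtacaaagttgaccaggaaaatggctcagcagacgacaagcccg

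Pde10a encodes a phosphodiesterase for cAMP and cGMP, shown at chr1:54765619-54765918 on the minus strand, 1 of its 2 windows.
Pde10a: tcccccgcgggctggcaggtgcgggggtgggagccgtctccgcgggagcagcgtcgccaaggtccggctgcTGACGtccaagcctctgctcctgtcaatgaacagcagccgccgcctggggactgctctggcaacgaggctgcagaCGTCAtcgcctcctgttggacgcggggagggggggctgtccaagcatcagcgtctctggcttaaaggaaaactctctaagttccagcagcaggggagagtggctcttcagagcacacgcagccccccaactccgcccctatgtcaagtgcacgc

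Akap7 encodes an anchoring protein whose short forms sit at the plasma membrane, shown at chr1:21906426-21906725 on the plus strand.
Akap7: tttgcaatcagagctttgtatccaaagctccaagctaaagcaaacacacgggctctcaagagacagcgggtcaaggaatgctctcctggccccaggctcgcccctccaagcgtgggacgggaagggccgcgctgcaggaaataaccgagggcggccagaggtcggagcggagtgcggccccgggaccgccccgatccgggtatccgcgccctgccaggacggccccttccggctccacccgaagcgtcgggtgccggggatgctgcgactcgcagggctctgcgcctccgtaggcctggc

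Akap13 encodes an anchoring protein, shown at chr1:138723900-138724199 on the plus strand.
Akap13: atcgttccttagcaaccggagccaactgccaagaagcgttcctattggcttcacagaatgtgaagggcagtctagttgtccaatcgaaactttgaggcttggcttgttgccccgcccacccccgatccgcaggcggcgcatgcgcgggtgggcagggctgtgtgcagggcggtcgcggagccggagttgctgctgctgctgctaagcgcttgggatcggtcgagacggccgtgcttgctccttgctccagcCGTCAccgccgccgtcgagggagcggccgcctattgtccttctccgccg

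The Pde10a window held a forward match that begins 179 bases before the start and a reverse match that begins 104 bases before it. In the Pde4d window the matches began 231 and 194 bases before the start, and Akap13 had 1 match just past its start. The Pde4b and Akap7 windows had none of these letters. TGACG occurred in 14 of the 63 member windows (22.2%), against 21.2% of all 33469 windows in the table. TGACGTCA occurred in 1 member window (1.59%), that of Akap17a, against 1.83% of all windows. TTANGTAA occurred in 0 of 63 member windows, against 2.24% of all. The shares in the member windows were thus close to those of the whole table. A match describes the letters of a window only.

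Signals are MAS5 intensities. They were scaled to a common trimmed mean, and any signal under 126 (the median of the whole table) was raised to this floor before log2 was taken. Each gene is represented by its brightest probe set, and a comparison uses a gene, here called measured, if either array is above the floor. Where 1 array is below it, the fold is given as "at least". Differences of 2-fold or more were counted. The median signal of all probe sets was 136 on the Ad-NFIL3 array with FSK/PMA, 115 on the Ad-GFP array with FSK/PMA and 127 on the unstimulated array. Nfil3 itself, the check of the labels, had signals of 5880 on the Ad-NFIL3 array, 1321 on the Ad-GFP array with FSK/PMA and 563 on the unstimulated array. Its probe set may or may not lie in the part that the virus carries.

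The granulosa identity of the cells was read from fixed markers. All 8 granulosa markers on the array were above the floor on at least 1 array, 7 of them on all 3. The exception was Cyp19a1, the aromatase gene, with 992 on the Ad-NFIL3 array, 2489 on the Ad-GFP array with FSK/PMA and 120 unstimulated. Inha, the inhibin alpha subunit, had 18598 on the Ad-NFIL3 array, 29900 on the Ad-GFP array with FSK/PMA and 26480 unstimulated. The summed signal of the 8 markers was 32694 on the Ad-NFIL3 array, 59518 on the Ad-GFP array with FSK/PMA and 71960 unstimulated. The theca markers Cyp17a1 and Insl3 were below the floor on all 3 arrays. Leukocyte markers summed to 3128 on the Ad-NFIL3 array, 2818 on the Ad-GFP array with FSK/PMA and 2198 unstimulated, with Ptprc and Itgam below the floor throughout. Within this list Cd14 had 1562 with NFIL3, 1487 with GFP and FSK/PMA and 606 unstimulated. Lyz2 had 969 with NFIL3, 769 with GFP and FSK/PMA and 1110 unstimulated, so the sums do not show a rise of the whole list. Stroma markers summed to 1091 with NFIL3, 695 with GFP and FSK/PMA and 867 unstimulated. Endothelial markers summed to 406 with NFIL3, 410 with GFP and FSK/PMA and 313 unstimulated. Oocyte markers summed to 430 with NFIL3, 575 with GFP and FSK/PMA and 967 unstimulated. Most of each sum came from Zp2, the only oocyte marker above the floor. It had 269 with NFIL3, 406 with GFP and FSK/PMA and 891 unstimulated, so the sums do not show a fall of the whole list. Red cell markers summed to 15708 with NFIL3, 18360 with GFP and FSK/PMA and 19929 unstimulated. Pecam1 of endothelium and Zp1, Zp3, Gdf9 and Bmp15 of oocytes were below the floor on every array. In bulk RNA, fewer cells of a type and less RNA per cell cannot be told apart, and the part of these shifts in the results below was not tested.

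Of the 64 members, 35 were above the floor on at least 1 array, 26 of them on all 3, and 29 were below it on all 3. Gnas, both PKA catalytic genes, all 4 PKA regulatory genes and both PKA inhibitor genes were above it. Of the 8 cyclase genes only Adcy6 and Adcy9 were. Of 24 genes in the phosphodiesterase group 9 were above the floor, of 9 in the PKC group 6, and of 14 AKAP genes 9. A signal below the floor means that a probe set was not read reliably, not that the gene is silent.

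The 29 members without a usable signal include genes known from other cell types. Adcy10, the soluble cyclase of sperm, stayed at or below 33.1. Pde3a, the phosphodiesterase known from the oocyte, stayed at or below 51.1, and Pde6a and Pde6b of rod photoreceptors at or below 47.6 and 75.4. Prkcq, the PKC form known from T cells, stayed at or below 61.3, and Akap3 and Akap4 of the sperm tail at or below 63.6 and 12.1. The others were Adcy2, Adcy3, Adcy4, Adcy5, Adcy8, Prkcz, Prkcel1 (a long noncoding RNA in the RefSeq table, despite its PKC-like name), Akap5, Akap6, Akap14, Pde1a, Pde1b, Pde1c, Pde2a, Pde3b, Pde4a, Pde5a, Pde6h, Pde7b, Pde8b, Pde9a and Pde12.

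**Figure D1:**
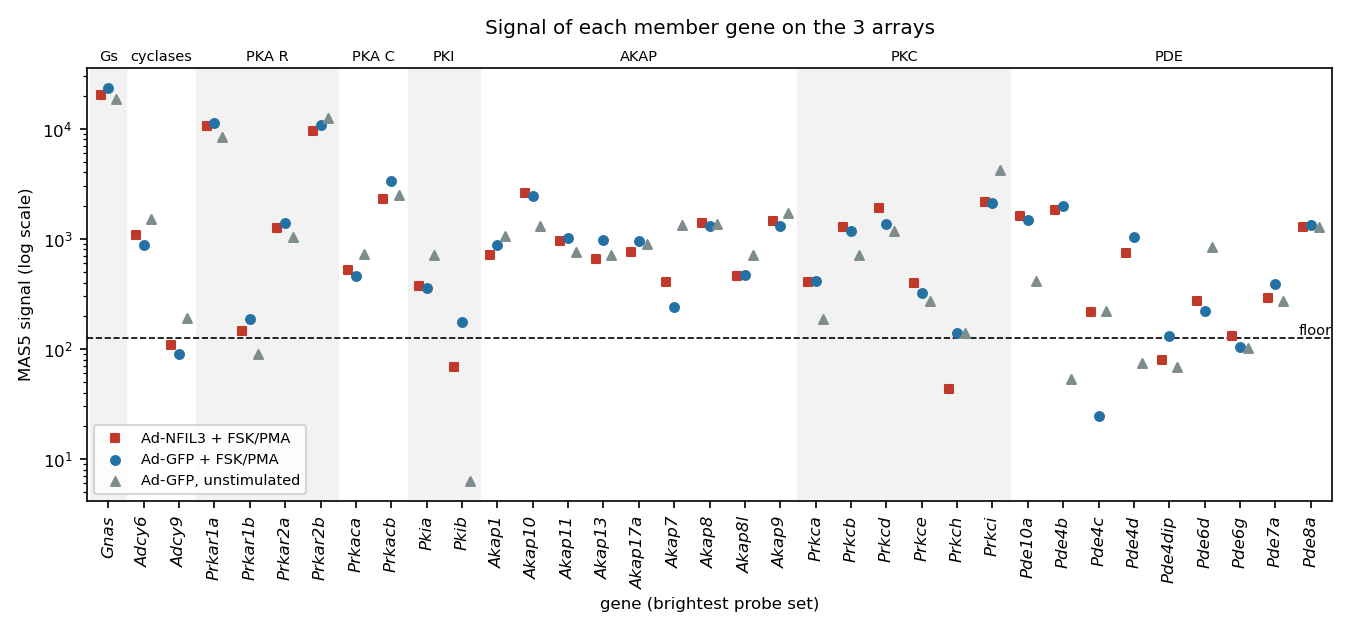
MAS5 signal (log scale) of the 35 member genes above the floor of 126 (dashed line) on at least 1 array, by family, on the Ad-NFIL3 array with FSK/PMA (red squares), the Ad-GFP array with FSK/PMA (blue circles) and the unstimulated Ad-GFP array (grey triangles). The unstimulated array lies far below the other two for Pde4b and Pde4d and far above them for Akap7 and Pde6d.

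The first comparison asked how these genes differ after 6 h of FSK/PMA, both arrays carrying Ad-GFP. The largest rises were those of genes for cAMP-degrading enzymes: Pde4b was at least 15.7-fold higher, Pde4d at least 8.33-fold higher and Pde10a 3.57-fold higher. Prkca, the classical PKC alpha, was 2.22-fold higher. Akap7 was 5.49-fold lower and Pde6d 3.79-fold lower. The other 28 measured members, which include Gnas and all cyclase and PKA genes measured, were not past 2-fold. For Adcy9, Prkar1b, Pkib, Pde4c and Pde4dip among them 1 array was below the floor, so their folds are lower bounds.

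Among 34 measured members, 4 were at least 2-fold higher (11.8%), beside 7.43% of all 9395 measured genes, and 2 were at least 2-fold lower (5.88%), beside 11.4%. Together 17.6% of the members passed 2-fold, beside 18.8% of all genes, so the share of members that differed was near that of the whole array. Of the genes of the whole array past 2-fold, 39.4% were higher, and 50.1% when each array was scaled to its median. The members' median log2 difference was 0.15, against -0.10 for all measured genes, and median scaling moved these to 0.24 and 0.03. At 1.5-fold 15 members passed (44.1%, beside 39.0% of all genes), 6 of them higher (17.6%, beside 14.9%) and 9 lower (26.5%, beside 24.0%). On the same arrays 1 of 8 granulosa markers was at least 2-fold higher and 4 were lower, with a median of -0.85, and their part in the members' values was not tested. The members nearest the limit were Prkca (2.22-fold) just inside and Akap10 (1.88-fold) just outside on the higher side, and Pde6d (3.79-fold) inside and Pkia (1.99-fold) outside on the lower side.

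As a technical spread, 1590 genes with 2 probe sets above the floor on both arrays disagreed between them with a robust SD of 0.33 on the log2 scale per difference. This SD leaves out differences between cultures. Beyond it, 15 of 34 members were higher (44.1%, beside 25.0% of all genes) and 10 were lower (29.4%, beside 36.5%). The remaining 9 members were within it (26.5%, beside 38.4%).

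On its brightest probe set the Gs gene differed by less than 2-fold. Gnas, which encodes the alpha subunit of Gs, had a signal of 23661 with FSK/PMA and 18769 unstimulated, 1.26-fold higher. Its brightest probe set can bind several transcripts of this multi-product locus. The other two Gnas probe sets read 217 and 137 with FSK/PMA, against 13.5 and 89.6 unstimulated, and gave at least 1.72-fold and at least 1.09-fold higher.

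Both measured cyclases were lower. Adcy6, a calcium-inhibited membrane cyclase, had 877 with FSK/PMA and 1498 unstimulated, 1.71-fold lower. Its second probe set was below the floor with FSK/PMA at 66.3, against 198 unstimulated, at least 1.57-fold lower. Adcy9, a membrane cyclase that forskolin activates only weakly, had 90.2 with FSK/PMA and 189 unstimulated, at least 1.5-fold lower.

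The genes of the PKA regulatory and catalytic subunits were not past 2-fold in either direction, with only a lower bound for Prkar1b. Prkar1a, the type I alpha regulatory subunit, had 11154 with FSK/PMA and 8340 unstimulated, 1.34-fold higher, and its other two probe sets were 1.85-fold and 1.17-fold higher. Prkar2a, the type II alpha subunit, was 1.33-fold higher and Prkar1b, the type I beta subunit, was at least 1.47-fold higher. Prkar2b, the type II beta subunit known to be induced by follicle-stimulating hormone in rat granulosa cells, went the other way, with 10899 with FSK/PMA and 12608 unstimulated, 1.16-fold lower. That difference of -0.21 on the log2 scale is inside the spread between probe sets.

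The catalytic genes moved apart. Prkacb, the beta catalytic subunit, had 3323 with FSK/PMA and 2483 unstimulated, 1.34-fold higher, and its other two probe sets were at least 1.60-fold and 1.75-fold higher. Prkaca, the alpha catalytic subunit, had 458 with FSK/PMA and 731 unstimulated, 1.60-fold lower, on a lone probe set.

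Pkia, the heat-stable inhibitor that occupies the catalytic site of PKA, had 358 with FSK/PMA and 713 unstimulated, 1.99-fold lower. Another of its probe sets was at least 1.29-fold lower and the last was below the floor on both arrays. Pkib, the second inhibitor gene, had 177 with FSK/PMA and 6.27 unstimulated, at least 1.40-fold higher. Its signal with FSK/PMA was only just above the floor, so this bound is small by construction.

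Among the AKAPs, Akap7 stood apart in size. Its brighter probe set read 241 with FSK/PMA and 1323 unstimulated, 5.49-fold lower, and the dimmer one read 103 with FSK/PMA and 314 unstimulated, at least 2.5-fold lower. Both probe sets therefore passed 2-fold in the same direction. Akap10, an anchoring protein found at mitochondria that binds both types of regulatory subunit, had 2457 with FSK/PMA and 1307 unstimulated, 1.88-fold higher. Its dimmer probe set, near the floor, was at least 1.05-fold higher. The nuclear gene Akap8l was 1.52-fold lower, and its other two probe sets were at least 1.76-fold and 1.47-fold lower. The remaining AKAPs, Akap1 of the mitochondrial surface, Akap8 of the nucleus, Akap9 of the centrosome and Golgi, Akap11, Akap13 and Akap17a, had log2 differences between -0.38 and 0.45. The probe sets of Akap11 opposed each other, at 0.41 and -0.58.

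The PKC family split by gene. Prkca had 411 with FSK/PMA and 185 unstimulated, on its only probe set. Prkcb, the other classical form measured, had 1184 with FSK/PMA and 705 unstimulated, 1.68-fold higher, and a dimmer probe set passed 2-fold at 2.44-fold higher. Prkcb is also known from leukocytes. Of their 4 measured markers Cd14 was 2.46-fold, Cd68 1.36-fold and Cd74 1.03-fold higher, and Lyz2 was 1.44-fold lower. Ptprc and Itgam were below the floor. The leukocyte list as a whole had 1 of 4 measured genes at least 2-fold higher, 0 at least 2-fold lower and a median of 0.24. Its part in the Prkcb value was not tested.

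Prkcd and Prkce, forms that bind phorbol ester and need no calcium, were 1.16-fold and 1.17-fold higher, inside the spread between probe sets. Prkch, another form of this kind, had 139 with FSK/PMA and 140 unstimulated. Prkci, an atypical form that does not bind phorbol ester, had 2133 with FSK/PMA and 4171 unstimulated, 1.96-fold lower. A second, dim probe set of Prkci read 144 on both of these arrays.

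Of 8 measured genes named as phosphodiesterases, 3 were higher and 1 lower past 2-fold (50.0%, beside 18.8% of all measured genes), and the lower one, Pde6d, is an enzyme gene by name only. Pde4b had 1974 with FSK/PMA and 52.8 unstimulated on its brighter probe set, and 1031 with FSK/PMA and 51.3 unstimulated on the other, at least 8.19-fold higher there. Both probe sets were below the floor in unstimulated cells and far above it with the stimulus. Pde4d had 1049 with FSK/PMA and 74.7 unstimulated on its brightest probe set. Its other probe sets read 353 and 175 with FSK/PMA, against 93.3 and 6.76 unstimulated, at least 2.81-fold and at least 1.39-fold higher. All 3 were below the floor without stimulus, so the size of each bound follows from the signal with FSK/PMA.

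Pde10a was already above the floor without stimulus, with 1482 with FSK/PMA and 415 unstimulated, 3.57-fold higher. Its second probe set gave 660 with FSK/PMA and 194 unstimulated, 3.41-fold higher. The agreement of the Pde10a probe sets was closer than that of Pde4b or Pde4d, whose folds are bounds.

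Pde6d, whose product binds prenylated proteins and is a phosphodiesterase subunit only by name and history, had 220 with FSK/PMA and 834 unstimulated on its lone probe set. Pde4c, the cAMP-specific relative of Pde4b and Pde4d, had 24.6 with FSK/PMA and 221 unstimulated, at least 1.75-fold lower. Pde7a, another cAMP-specific enzyme, was 1.43-fold higher. Pde8a, a high-affinity cAMP enzyme, had 1333 with FSK/PMA and 1286 unstimulated, a difference of 0.05 on the log2 scale. Pde4dip, a scaffold protein that binds phosphodiesterase, barely passed the floor with 132 on the FSK/PMA array, and Pde6g was below it on both.

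**Figure D2:**
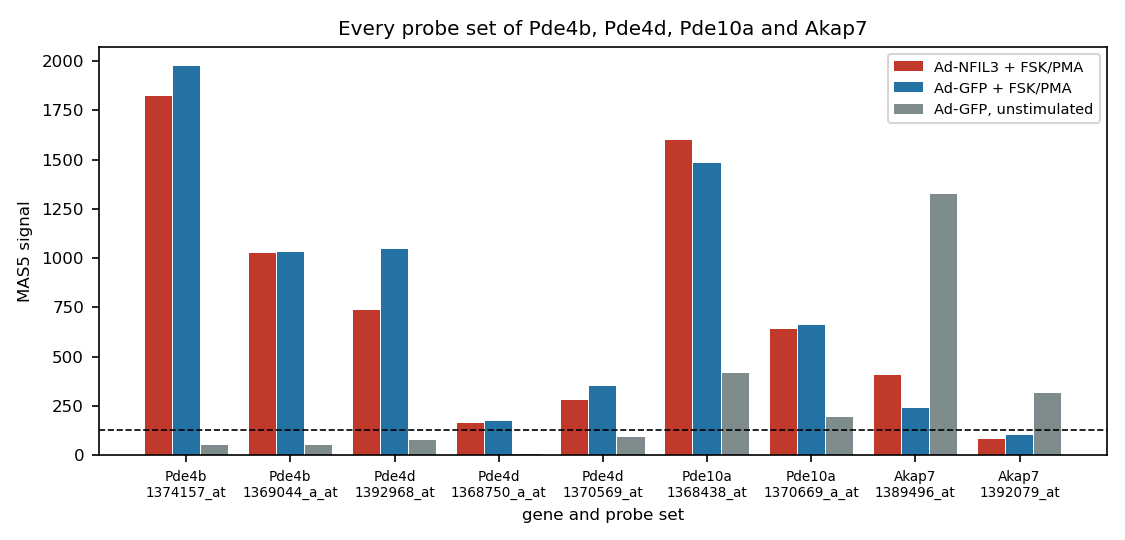
MAS5 signal (linear axis from 0) of every probe set of Pde4b, Pde4d, Pde10a and Akap7 on the Ad-NFIL3 array with FSK/PMA (red), the Ad-GFP array with FSK/PMA (blue) and the unstimulated Ad-GFP array (grey), with the floor of 126 dashed. Each probe set of the 3 phosphodiesterase genes was brighter on both stimulated arrays than on the unstimulated one, and both Akap7 probe sets were dimmer.

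Across the members, 18 genes had 2 or more measured probe sets in this comparison, and in 16 of them all probe sets differed in the same direction. The exceptions were Akap11 and Prkci. Over the whole array, the 2 probe sets of a gene had the same direction in 73.5% of the 1590 genes above. That share needs 2 probe sets above the floor on both arrays. The 18 members include lower bounds and genes with more than 2 probe sets, so the counts are not like for like.

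**Figure D3:**
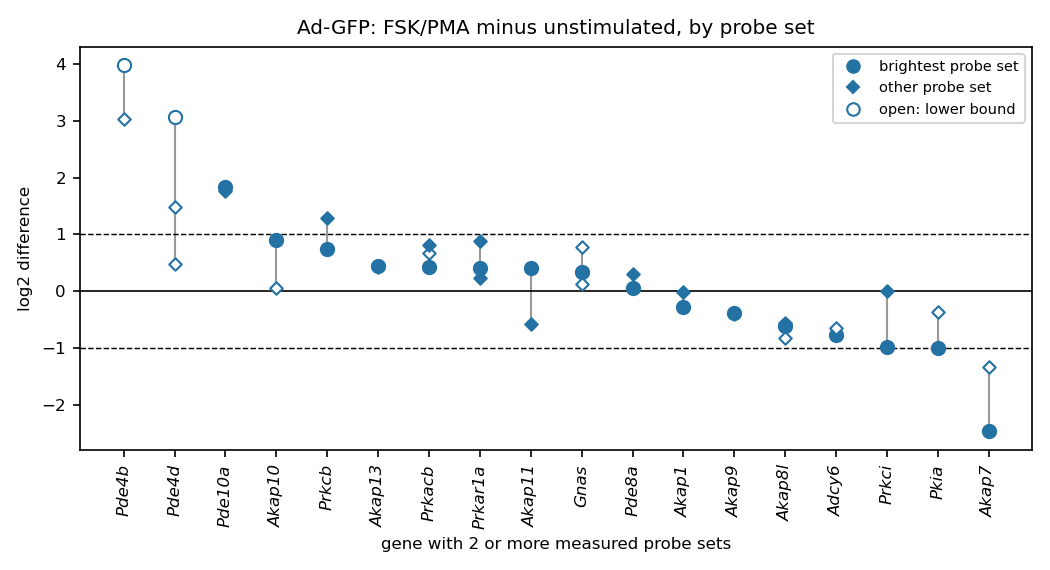
Log2 difference, FSK/PMA minus unstimulated in Ad-GFP cells, for each measured probe set of the 18 member genes with at least 2 (circles: brightest probe set; diamonds: others; open symbols: lower bounds; dashed lines: 2-fold). Probe sets of Akap11 and Prkci lie on opposite sides of 0, and those of Pde4b and Pde10a all lie beyond 2-fold.

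Other genes of the same pathways were read from lists. Among receptors coupled to Gs, 3 of 9 on the array were measured, 1 was at least 2-fold higher and 1 lower. Adora2b, an adenosine receptor, was at least 2.39-fold higher and Lhcgr, the luteinizing hormone receptor, was 2.68-fold lower, with 2472 with FSK/PMA and 6628 unstimulated. Of 5 measured alpha subunits of other G proteins, 1 was higher and 0 were lower past 2-fold. This was Gnai1, an inhibitory alpha subunit, 2.59-fold higher, with 667 with FSK/PMA and 257 unstimulated.

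The cAMP effectors outside PKA were mostly unreadable: Rapgef3 and Rapgef4, the Epac exchange factors, and the Popeye genes Bves, Popdc2 and Popdc3 were below the floor on every array. Pkig, a further PKA inhibitor gene, had 1648 with FSK/PMA and 3582 unstimulated, 2.17-fold lower, and Prkx, a PKA-related kinase, was 1.85-fold higher. The CREB list had 13 measured genes, of which 2 were higher and 1 lower past 2-fold, with a median of 0.04. Crem, which encodes the cAMP-inducible repressor ICER from an internal start, was 8.50-fold higher. Sik1, a kinase that holds CREB coactivators in the cytoplasm, was 3.69-fold higher, with 1306 with FSK/PMA and 354 unstimulated, and Creb3 was 2.81-fold lower.

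On the diacylglycerol side, 2 of 6 measured phospholipase C genes were at least 2-fold higher and 2 lower. Plcb1 and Plcd1 were 3.08-fold and 2.60-fold higher, and Plcb4 and Plcb3 were 2.97-fold and 2.09-fold lower. None of 6 measured diacylglycerol kinase genes passed 2-fold, and Dgka was nearest at 1.97-fold higher. Among 4 measured phorbol receptors outside PKC only Chn2, a chimaerin, passed, at 2.64-fold lower. Of 7 measured PKC substrates and scaffolds only Akap12 passed, at 4.35-fold lower, while Marcks, the major PKC substrate, was 1.49-fold lower and Rack1, the receptor for activated PKC, differed by 0.04 on the log2 scale.

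The second comparison asked how the same genes differ with NFIL3 against GFP when both carry FSK/PMA. None of 34 measured members passed 2-fold, 0 higher and 0 lower, beside 1.34% of all 9397 measured genes higher and 0.958% lower (2.3% in all). At 1.5-fold 2 members were higher and 0 lower, beside 6.81% and 4.25% of all genes. Together this was 5.88% of the members, beside 11.1%. The 2 members were Akap7 and Pde4c. Both comparisons use the Ad-GFP array with FSK/PMA, on which these 2 genes read 241 and 24.6. Among members above the floor on both arrays, the largest lower values were those of Akap13 (1.49-fold), Prkacb (1.44-fold) and Pde4d (1.42-fold). Pkib and Prkch were below the floor with NFIL3 and have only lower bounds, and both passed 2-fold with a lower floor of 46.2.

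**Figure D4:**
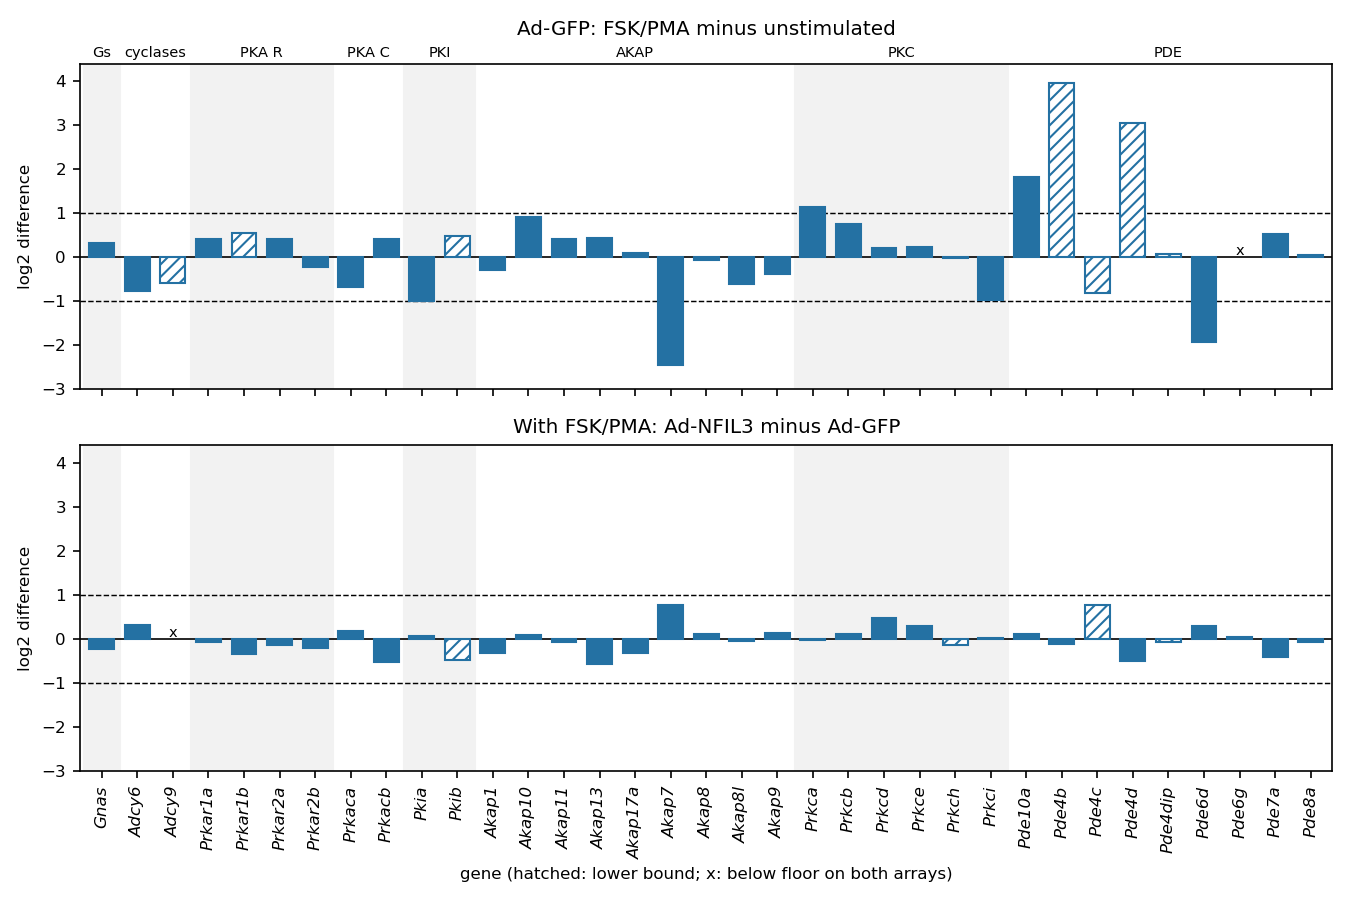
Log2 difference of each member gene for FSK/PMA minus unstimulated in Ad-GFP cells (top) and Ad-NFIL3 minus Ad-GFP with FSK/PMA (bottom), by family, with 2-fold marked by dashed lines. Hatched bars are lower bounds and x marks genes below the floor on both arrays; 6 bars pass 2-fold at the top and 0 at the bottom.

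The 3 phosphodiesterase genes that were higher with FSK/PMA differed by less than 2-fold between the NFIL3 and GFP arrays. Pde4b had 1824 with NFIL3 and 1974 with GFP, 1.08-fold lower, and its second probe set had 1024 with NFIL3 and 1031 with GFP. Pde10a had 1600 with NFIL3 and 1482 with GFP, 1.08-fold higher. Pde4d had 738 with NFIL3 and 1049 with GFP, and its other probe sets were 1.27-fold and 1.09-fold lower, so all 3 were lower on the NFIL3 array by less than 2-fold. The spread between probe sets had a robust SD of 0.23 here over 1654 genes. The differences of the brightest and the second Pde4d probe set, -0.51 and -0.34 on the log2 scale, exceeded it, and that of the dimmest, -0.13, did not.

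Akap7 had 408 with NFIL3 and 241 with GFP, 1.69-fold higher, but its dimmer probe set read 79.1 with NFIL3 and 103 with GFP, both below the floor. Pde4c had 216 with NFIL3 and 24.6 with GFP, at least 1.72-fold higher, on a lone probe set. Akap13 had 651 with NFIL3 and 966 with GFP, and a second probe set, with 536 with NFIL3 and 763 with GFP, was 1.42-fold lower, close to the first. Akap10 had 2611 with NFIL3 and 2457 with GFP, 1.06-fold higher, and its dimmer probe set was 1.78-fold higher.

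Of the PKA genes, Prkacb, Prkar1b and Pkib were lower with NFIL3 on their brightest probe sets by more than the spread between probe sets. Prkar1a had 10608 with NFIL3 and 11154 with GFP, 1.05-fold lower, and its other probe sets were at -0.31 and 0.004 on the log2 scale. Prkar2b had 9486 with NFIL3 and 10899 with GFP, 1.15-fold lower. Prkar2a was 1.10-fold lower on its brightest probe set. Its dimmer probe sets, below the floor with GFP, were at least 1.32-fold and at least 1.09-fold higher. Prkar1b was 1.27-fold lower on a lone probe set near the floor, with 147 with NFIL3 and 186 with GFP. Prkacb had 2306 with NFIL3 and 3323 with GFP, and its other probe sets were 1.13-fold and 1.06-fold lower, inside that spread. Prkaca was 1.13-fold higher, and Pkia had 375 with NFIL3 and 358 with GFP, 1.05-fold higher. Pkib had 68.9 with NFIL3 and 177 with GFP, at least 1.40-fold lower. Gnas had 20090 with NFIL3 and 23661 with GFP, 1.18-fold lower, and its dimmer probe sets were 1.69-fold lower and 1.25-fold higher. Adcy6 had 1089 with NFIL3 and 877 with GFP, 1.24-fold higher, and Adcy9 was below the floor on both.

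Among the PKC genes, Prkcd had 1919 with NFIL3 and 1372 with GFP, 1.40-fold higher, and Prkce was 1.23-fold higher. Prkca, with 407 with NFIL3 and 411 with GFP, differed by less than the spread between probe sets, at -0.02 on the log2 scale. Prkci, with 2150 with NFIL3 and 2133 with GFP, did so too, at 0.01. Prkcb was at 0.11 on its brightest probe set. A dimmer Prkcb probe set, with 317 with NFIL3 and 407 with GFP, was lower at -0.36, beyond that spread. Prkch had 43.1 with NFIL3 and 139 with GFP, at least 1.10-fold lower. Of the remaining phosphodiesterase group, Pde6d had 271 with NFIL3 and 220 with GFP, 1.23-fold higher, Pde7a was 1.34-fold lower and Pde8a, with 1273 with NFIL3 and 1333 with GFP, was 1.05-fold lower. On their brightest probe sets the remaining AKAPs, Akap1, Akap8, Akap8l, Akap9, Akap11 and Akap17a, lay between -0.32 and 0.14 on the log2 scale. Other probe sets opposed the brightest for Akap8l (0.47 and at least 0.25, against -0.04), Akap11 (0.41, against -0.08) and Akap1 (0.21, against -0.32). The second probe set of Akap9 was at 0.13, beside 0.14.

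Beyond the spread between probe sets, 6 members were higher with NFIL3 (17.6%, beside 26.1% of all genes) and 9 were lower (26.5%, beside 18.2%), and 19 were within it (55.9%, beside 55.7%). The members' median was -0.05, against 0.03 for all genes. Scaling arrays to their medians moved the median of all genes to -0.20 and that of the members to -0.26. Of the genes of the whole array past 2-fold, 58.3% were higher with NFIL3, and 20.2% under median scaling, 44.8% under quantile normalisation and 44.5% under cyclic loess. In this comparison 8 of 17 member genes with several measured probe sets had the same direction in all of them, and over the array 62.5% of 1654 genes did. The share of the array again needs 2 probe sets above the floor on both arrays, while the member count includes lower bounds.

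In the pathway lists 1 gene past 2-fold was lower with NFIL3 and 1 was higher, beside 0.958% and 1.34% of all measured genes. Lhcgr had 1150 with NFIL3 and 2472 with GFP, 2.15-fold lower, and Akap12 had 1135 with NFIL3 and 352 with GFP, 3.23-fold higher. Crem was 1.61-fold lower and Sik1 1.53-fold lower, with 2618 and 856 with NFIL3, against 4219 and 1306 with GFP. Of 13 CREB list genes, 5 measured G protein alpha genes, 6 phospholipase C genes, 6 diacylglycerol kinase genes and 4 phorbol receptors, 0 passed 2-fold in either direction. Granulosa markers, with 3 of 8 at least 2-fold lower, 0 higher and a median of -0.50, were lower on the same array. Of 3 measured stroma markers, 1 was at least 2-fold higher and 0 were lower, with a median of 0.24. This was Dcn at 2.45-fold higher, while Col3a1 was 1.03-fold higher and Pdgfra at least 1.18-fold higher. The part of these markers in the values above was not tested.

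Set against unstimulated GFP cells, the NFIL3 array with FSK/PMA shares its arrays with both comparisons above, so only its values are given beside them. Pde4b was at least 14.5-fold higher, beside at least 15.7-fold for FSK/PMA with GFP. Pde4d was at least 5.87-fold higher, beside at least 8.33-fold, and Pde10a was 3.85-fold higher, beside 3.57-fold. Prkca was 2.20-fold higher, beside 2.22-fold. Akap7 was 3.24-fold lower, beside 5.49-fold, and Pde6d was 3.08-fold lower, beside 3.79-fold. Of 33 members measured between these arrays 4 were at least 2-fold higher (12.1%), beside 6.52% of 9647 genes, and 2 lower (6.06%), beside 9.05%, which makes 18.2% of the members in all, beside 15.6%.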

How the data were processed

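Total RNA of cultured rat granulosa cells was measured on 3 arrays, 1 per group. The authors deposited linear intensities, 1 per probe set and array, made with MAS5 per the submitters' processing notes. No source used here gives its version. Each deposited column had a 2% trimmed mean of 500, so the authors had scaled the arrays. The table holds 31099 probe sets. The platform annotation names 20832 of them by 1 symbol, 436 by several and 9831 by none. The probe sets with 1 symbol gave 14218 genes. Of these probe sets 20764 matched the RefSeq gene table (GRCr8), and the others kept the platform symbol.

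Arrays were rescaled to the same trimmed mean, floored at 126 and put on the log2 scale by this re-analysis of the deposited intensities. MAS5 subtracts mismatch signal, which makes low values noisy, hence the floor. Detection calls were not used here. Members, gene lists and motifs were chosen with earlier results of these data known, and the member list follows gene names, not values. Signals on all 3 arrays were given for members past 2-fold, for the brightest of each family and for others where probe sets are compared. Up to 4 genes past 2-fold were named from each pathway list, and others named there or among marker genes were chosen after their values were seen. The counting steps were tested on simulated signals. Alternatives were 2 floors, 3 scalings, 2 probe set rules and a 1.5-fold limit. Python 3.11.15, pandas 2.3.3, R 4.3.3 and limma 3.58.1 (quantile and cyclic loess) were used.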

Additional observations from a re-analysis of the deposited data

How the results depend on the processing

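In the FSK/PMA comparison the count of members past 2-fold was 6 in the setting reported (17.6%, beside 18.8% of all measured genes). With the other 3 scalings and both probe set rules it was 6 or 7 (17.6% to 20.6%, beside 15.2% to 18.8%). Akap10 was added by median scaling and Prkci by quantile normalisation and cyclic loess. It depended on the floor. With a floor at the 25th percentile of all signals (46.2) it was 11, with 7 higher and 4 lower, and with a floor at the 75th percentile (547) it was 3, with 2 higher (Pde4b and Pde10a) and 1 lower (Akap7). A lower floor admits signals that were treated as unreadable, and a higher floor shortens bounds by construction. At 1.5-fold it was 15, with 6 higher and 9 lower. Pde4b ranged from 1.85 to 5.22 on the log2 scale over the alternatives, Pde4d from 0.94 to 3.81 (1.67 as the mean of its probe sets), Pde10a from 1.44 to 1.97, Akap7 from -2.46 to -1.27, Pde6d from -1.92 to -0.61 and Prkca from 1.15 to 1.34 without the higher floor, under which its signals on both arrays lie.

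In the NFIL3 comparison the count was 0 with all scalings, both probe set rules and the higher floor. The share of all genes in these settings was 1.52% to 2.55%. With the floor at the 25th percentile the count was 5 of 56 (8.93%, beside 6.26% of all measured genes). Of these, 3 were higher (Pde4c, Pde8b and Adcy4) and 2 lower (Pkib and Prkch). All 5 had 1 array under the floor of 126 or both. At 1.5-fold it was 2, both higher. Only members past 2-fold and the brightest of each family were followed through each alternative. Among these, median scaling turned the sign of the small NFIL3 differences of Akap10 (-0.15), Pde10a (-0.13), Pkia (-0.17) and Prkci (-0.23). Quantile normalisation (-0.028) and cyclic loess (-0.045) also turned Pkia, and the mean of all probe sets turned Prkci (-0.063). Leaving out probe sets that can bind several transcripts turned the sign of Gnas (0.33). Median scaling lowered each followed difference by a like amount, for Prkci from 0.01 to -0.23. Prkaca (0.18), Akap9 (0.14), Akap8 (0.11) and Prkcb (0.11) had values smaller than that shift and were not followed. No paired analysis was possible because each group has 1 array.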
